A study of Homo sapiens with 14 samples.

Results

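The binding of GATA3 carrying the G444E mutation was compared with that of wildtype GATA3, each with a FLAG tag at its C-terminus, by chromatin immunoprecipitation and sequencing (ChIP-seq) in MDA-MB-231 cells. MDA-MB-231 is an established human triple-negative breast cancer cell line. The comparison took all libraries of the tagged G444E group and all libraries of the tagged wildtype group, 4 of the 14 samples of the study, with 2 replicates in each group. The G444E-FLAG group expressed GATA3 with the G444E substitution and the tag, and the WT-FLAG group expressed wildtype GATA3 with the same tag. According to the submitters, the tag keeps GATA3 protein levels stable whether or not a mutation is present, so the 2 groups compare mutant and wildtype protein with the tag's stabilisation in common. The antibody was against GATA3 itself and not against the tag. Cells were collected on day 3, with no treatment in either group. The sources used here do not give how GATA3 was introduced into the cells, its promoter or whether the lines are clones. Nothing in the labels says that the replicates were separate cultures, so every p-value here measures the spread between these libraries, which may be technical. Peak lists hold no expression values, so the identity of the cells could not be checked from markers.

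GATA3 is a zinc-finger transcription factor that binds short sites built around the letters GATA. It is needed for luminal cell identity in the mammary gland and is often mutated in breast cancer, with many mutations near the end of the protein. MDA-MB-231 cells have a basal and mesenchymal character. The study as a whole concerns mutations that change how proteins are degraded, and the tagged pair addresses where the G444E protein binds when its level is held up.

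The G444E-FLAG libraries had 40389 peaks in replicate 1 and 30026 peaks in replicate 2, against 43208 and 36955 peaks in WT-FLAG replicates 1 and 2. The means were 35208 ± 7328 peaks in G444E-FLAG and 40082 ± 4422 peaks in WT-FLAG (SD, n = 2 each). The peak number of G444E-FLAG replicate 1 lay between the numbers of the WT-FLAG replicates, so the groups overlapped. The log2 difference was −0.20, a ratio of 0.871 for G444E-FLAG over WT-FLAG, and did not exceed the spread between libraries in a two-sided exact permutation test (p = 0.667, where the smallest p that 6 arrangements allow is 0.333). Sequencing depth is unknown, since the lists give no read counts.

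Merging the 4 lists where peaks overlapped by at least 1 bp gave 56096 regions, of 78999 regions over the 12 lists of the study that were analysed. Of these, 21616 regions, 38.5%, were called in all 4 libraries. A further 369 regions, 0.658%, were called in both G444E-FLAG libraries and in neither WT-FLAG library, and are named G444E-FLAG-only regions below. The opposite pattern, in both WT-FLAG libraries and in neither G444E-FLAG library, held 1750 regions or 3.12%, named WT-FLAG-only regions.

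The promoters that these regions touched show what the sequence there looks like. RefSeq windows on GRCh38.p14 run from 250 bases before to 50 bases after a gene's start, and the windows below are those touched by the highest ranked G444E-FLAG-only region and by its highest ranked counterpart with a motif (LIMA1, then RASSF6), and by the 2 highest ranked WT-FLAG-only regions at a promoter (IRF9, then OR56B1). Capitals mark a match on either strand to the motif AGATAA, the motif AGATAG, the motif TGATAA or the motif TGATAG, core letters that GATA factors prefer. LIMA1, chr12:50202124-50202423, minus strand, encodes an actin-binding protein that ties cadherin junctions to the cytoskeleton. RASSF6, chr4:73620387-73620686, minus strand, encodes a Ras-association domain protein. IRF9, chr14:24161015-24161314, plus strand, encodes the DNA-binding subunit of the type I interferon transcription complex. OR56B1, chr11:5736198-5736497, plus strand, encodes an olfactory receptor.
LIMA1: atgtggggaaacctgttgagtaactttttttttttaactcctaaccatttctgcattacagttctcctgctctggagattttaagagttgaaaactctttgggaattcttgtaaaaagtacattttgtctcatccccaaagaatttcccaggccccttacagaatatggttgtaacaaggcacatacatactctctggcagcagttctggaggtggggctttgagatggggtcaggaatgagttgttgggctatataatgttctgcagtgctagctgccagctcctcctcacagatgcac
RASSF6: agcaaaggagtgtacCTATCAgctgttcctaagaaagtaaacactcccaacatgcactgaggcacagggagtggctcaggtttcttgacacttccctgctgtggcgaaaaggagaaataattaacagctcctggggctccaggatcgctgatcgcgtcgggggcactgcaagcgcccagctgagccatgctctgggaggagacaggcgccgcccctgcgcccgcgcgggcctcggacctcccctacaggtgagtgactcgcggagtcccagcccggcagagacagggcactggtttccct
IRF9: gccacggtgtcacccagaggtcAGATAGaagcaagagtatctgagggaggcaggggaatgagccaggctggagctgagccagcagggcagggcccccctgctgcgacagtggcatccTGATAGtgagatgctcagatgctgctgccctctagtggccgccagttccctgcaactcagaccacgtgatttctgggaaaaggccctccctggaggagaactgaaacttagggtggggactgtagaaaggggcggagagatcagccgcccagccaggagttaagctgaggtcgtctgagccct
OR56B1: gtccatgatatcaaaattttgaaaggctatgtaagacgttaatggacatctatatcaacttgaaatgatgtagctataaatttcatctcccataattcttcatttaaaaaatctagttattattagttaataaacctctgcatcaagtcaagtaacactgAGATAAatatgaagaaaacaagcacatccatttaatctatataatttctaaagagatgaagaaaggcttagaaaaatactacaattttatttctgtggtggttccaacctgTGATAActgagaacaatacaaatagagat

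The LIMA1 window held no match, the RASSF6 window 1, and the IRF9 and OR56B1 windows 2 each. No match says only that these letters are absent from the window. Matches were counted over the whole window, and each of these regions covers only part of its window. At OR56B1 the region starts at chr11:5736425, after the AGATAA match. Over all promoter windows touched by a G444E-FLAG-only region, 3 of 13 held a match (23.1%), against 12 of 58 (20.7%) for WT-FLAG-only regions. The share was 21.2% of the 2716 windows touched by any of the 56096 regions, 29.8% of the 658 windows touched by a region called in all 4 libraries, and 19.97% of all 22132 RefSeq windows. The 22132 windows covered 15812 genes and no protein-coding gene on chromosome 8. The shares at the G444E-FLAG-only and WT-FLAG-only windows were thus near that of all windows.

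At the LIMA1 window, the region chr12:50201972-50202292 had score percentiles of 76.4 and 72.4 in G444E-FLAG replicates 1 and 2 and no peak in either WT-FLAG library. That window marks a start inside the gene, with the region's centre 26344 bp from the nearer gene end. A score percentile is the share of a library's own peaks that score at or below the region, from 0 to 100. At RASSF6, the region chr4:73620472-73620828 had percentiles of 29.6 and 11.9 in the G444E-FLAG replicates. At IRF9, no G444E-FLAG library had a peak, and the region chr14:24161005-24161265 had percentiles of 42.2 and 42.7 in the WT-FLAG replicates. At OR56B1, again with no peak in G444E-FLAG, the region chr11:5736425-5736927 had percentiles of 49.6 and 35.2 in WT-FLAG. All 4 of these regions kept their pattern when the lists were cut to one length by score. Cutting only removes peaks, so a region keeps this pattern whenever its own group's peaks score above the cut. The G444E-FLAG-only regions at promoter windows that ranked 2 and 4 by their lower percentile were at PPP1R3G, a glycogen-targeting subunit of protein phosphatase 1, and DEF6, a guanine nucleotide exchange factor of lymphocytes. The WT-FLAG-only regions that ranked 3 and 4 were at OR6A2, an olfactory receptor gene, and MED9, a subunit of the Mediator complex.

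**Figure D1:**
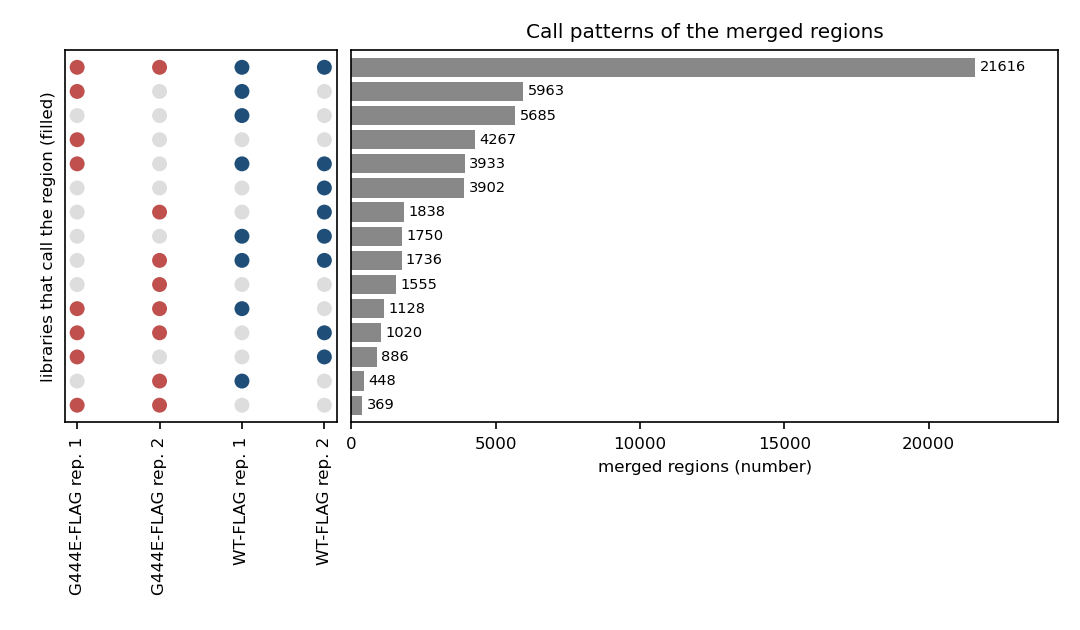
Number of merged regions (horizontal axis) for each combination of libraries that call them, with filled points marking the calling libraries (G444E-FLAG in red, WT-FLAG in blue). The 21616 regions called in all 4 libraries lead, the 5963 regions called by both replicate 1 libraries come next, and the 369 G444E-FLAG-only regions are the smallest class.

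The call patterns followed the replicate number more than the genotype. Both replicate 1 libraries and no other called 5963 regions, and both replicate 2 libraries and no other called 1838. Calls by a single library numbered 4267 and 1555 in G444E-FLAG replicates 1 and 2, against 5685 and 3902 in WT-FLAG replicates 1 and 2. A further 1736 regions were missing from G444E-FLAG replicate 1 alone and 3933 from G444E-FLAG replicate 2 alone, against 1020 from WT-FLAG replicate 1 alone and 1128 from WT-FLAG replicate 2 alone. G444E-FLAG replicate 2, the library with the shortest list, was the most frequent gap.

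The same held for the shared fraction of 2 lists, the regions called by both over the regions called by either. It was 0.669 between G444E-FLAG and WT-FLAG within replicate 1 and 0.652 within replicate 2. It was lower between the replicates of a group, at 0.539 in G444E-FLAG and 0.582 in WT-FLAG. With all lists cut to the 30026 highest scoring peaks, the fractions were 0.707 and 0.671 within replicates 1 and 2, against 0.553 within G444E-FLAG and 0.609 within WT-FLAG. Peak lengths were also alike within a number, with medians of 352 and 464 bp in G444E-FLAG replicates 1 and 2 and 388 and 467 bp in WT-FLAG. Whether a number marks a shared day or batch is not stated in the labels.

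Much of the excess of WT-FLAG-only regions went with list length. At equal length, 565 regions (1.29% of 43771) were G444E-FLAG-only and 841 (1.92%) were WT-FLAG-only. The WT-FLAG-only to G444E-FLAG-only ratio was 1.49 at equal length, against 4.74 with full lists. Only part of each set was the same: 170 of the 369 G444E-FLAG-only regions (46.1%) and 543 of the 1750 WT-FLAG-only regions (31.0%) had that pattern both ways. Another 550 of the WT-FLAG-only regions were in no list after the lists were cut. At equal length, 395 G444E-FLAG-only and 298 WT-FLAG-only regions were additional. By construction, since cutting only removes peaks, these had been called by the other group in the full lists. Within a replicate number at equal length the 2 genotypes were close to even, with 4942 regions in G444E-FLAG and not WT-FLAG, against 5140 the other way, in replicate 1, and 5794 against 5939 in replicate 2.

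The G444E-FLAG-only and WT-FLAG-only regions were mostly weak and short. The median of a region's lower percentile was 14.2 in the G444E-FLAG-only set and 15.2 in the WT-FLAG-only set, against 54.3 in regions called in all 4 libraries. The lower percentile was at least 50 in 19 G444E-FLAG-only regions (5.15%) and 83 WT-FLAG-only regions (4.74%), against 54.6% of regions called in all 4. Median lengths were 370 bp and 398 bp, against 709 bp for regions called in all 4. A score of at least 10 in both libraries, where each list starts at about 5, was reached by 120 of 369 G444E-FLAG-only and 729 of 1750 WT-FLAG-only regions. In all 4 libraries it was reached by 17915 of the 21616 regions called in all 4.

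Their positions differed little from those of the other regions. Of the G444E-FLAG-only regions 57.5%, and of the WT-FLAG-only regions 53.5%, lay inside a protein-coding gene, against 53.1% of all regions. Within 1 kb of a start site lay 15 G444E-FLAG-only regions (4.07%) and 84 WT-FLAG-only regions (4.80%), against 6.34% of all regions. The start sites used held none on chromosome 8, so none of the 2743 regions there, or their peaks, could be counted. Over whole lists, 5.82% and 4.11% of peaks in G444E-FLAG replicates 1 and 2 were within 1 kb of a start, against 6.03% and 4.39% in WT-FLAG. The values followed the replicate number, and the difference of −0.24 percentage points between the groups did not exceed the spread (two-sided exact permutation test, p = 0.667). At equal length the difference was +0.34 percentage points (exact permutation p = 0.333, the smallest possible). Chromosome 19 held 13 G444E-FLAG-only regions (3.52%) and 22 WT-FLAG-only regions (1.26%), against 2.19% of all regions. Chromosome 5 held 14 (3.79%) and 118 (6.74%), against 6.45% of all regions.

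The 10 highest ranked G444E-FLAG-only regions lay in or near 9 genes of varied function. All 10 kept the pattern at equal list length, which their ranks fixed in advance, since their peaks scored above the cut. The first lay in KAZN, which encodes a protein of desmosomes and of the epidermal cornified envelope (chr1:14149376-14149728), with percentiles of 89.5 and 81.5 in G444E-FLAG replicates 1 and 2 and no peak in WT-FLAG. Its score in G444E-FLAG replicate 1 was 73.9. At this position both untagged WT libraries and 1 untagged G444E library had a peak. The second, with percentiles of 90.5 and 81.3, lay outside any gene and was nearest to the TPD52-MRPS28 readthrough gene on chromosome 8 (chr8:80249679-80249979). DTNB, which encodes a dystrobrevin of the dystrophin-associated complex (chr2:25548276-25548896), had 77.5 and 86.7, and its pattern depended on counting an overlap of 1 bp.

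LIMA1 was the highest ranked of the 8 genes with 2 G444E-FLAG-only regions. Besides the region at its internal start, chr12:50254436-50254797, also inside the gene, had percentiles of 72.1 and 66.3 in G444E-FLAG. Both WT-FLAG libraries lacked a peak at either place, while both untagged WT libraries had peaks at both. RAPGEF2, an activator of Rap GTPases (chr4:159416972-159417374), had 76.1 and 75.2 in G444E-FLAG. PRKACB, a catalytic subunit of protein kinase A (chr1:84107677-84107985), had 67.1 and 59.4. The others lay in or near ZSCAN23, a zinc-finger gene, OR52B6, an olfactory receptor gene, and GRAMD2B, with percentiles between 60.7 and 74.0. Both untagged WT libraries also had a peak at DTNB, RAPGEF2, PRKACB and ZSCAN23. Of these libraries only replicate 2 had a peak at OR52B6, and neither had one at TPD52-MRPS28 or GRAMD2B. Both untagged G444E libraries had a peak at DTNB and OR52B6, replicate 1 at RAPGEF2 and replicate 2 at GRAMD2B. Neither had one at PRKACB, ZSCAN23 or TPD52-MRPS28. A region carries the name of the gene that holds it or of the nearest gene end up to 100 kb away, and nothing here ties the gene's activity to the region. Exons and introns were not assigned.

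The 10 highest ranked WT-FLAG-only regions also lay in or near genes of varied function. All 10 kept the pattern at equal length, which their ranks again fixed in advance. The first lay near MAP7D3, a microtubule-associated protein gene (chrX:136268372-136268883), with no peak in G444E-FLAG and percentiles of 92.5 and 90.04 in WT-FLAG replicates 1 and 2. The WT-FLAG scores there were 96.5 and 78.5. It and a second WT-FLAG-only region beside it lay within a span of 1214 bp. AOPEP, which encodes an aminopeptidase (chr9:94746220-94746913), had no peak in G444E-FLAG and percentiles of 76.9 and 74.4 in WT-FLAG, and held 3 WT-FLAG-only regions. ADHFE1, an alcohol dehydrogenase family gene (chr8:66436169-66436438), had 81.9 and 79.1 in WT-FLAG.

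Of the remaining WT-FLAG-only regions of this group, some were in IGHMBP2, a helicase gene, and RBBP7, a histone-binding subunit of several chromatin complexes. Others were in MYBL2, a cell cycle transcription factor, in LUZP1 and in PPP1R3F, and another was near ZGRF1. The last was in NEDD4, a ubiquitin ligase gene (chr15:55901952-55902303), with no peak in G444E-FLAG and 72.7 and 64.9 in WT-FLAG. All 8 libraries outside this comparison had a peak at NEDD4, among them both untagged G444E libraries. Both untagged G444E libraries also had a peak at the AOPEP region, and replicate 1 of that group at ADHFE1 and IGHMBP2. Neither had a peak at the remaining regions of this group.

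**Figure D2:**
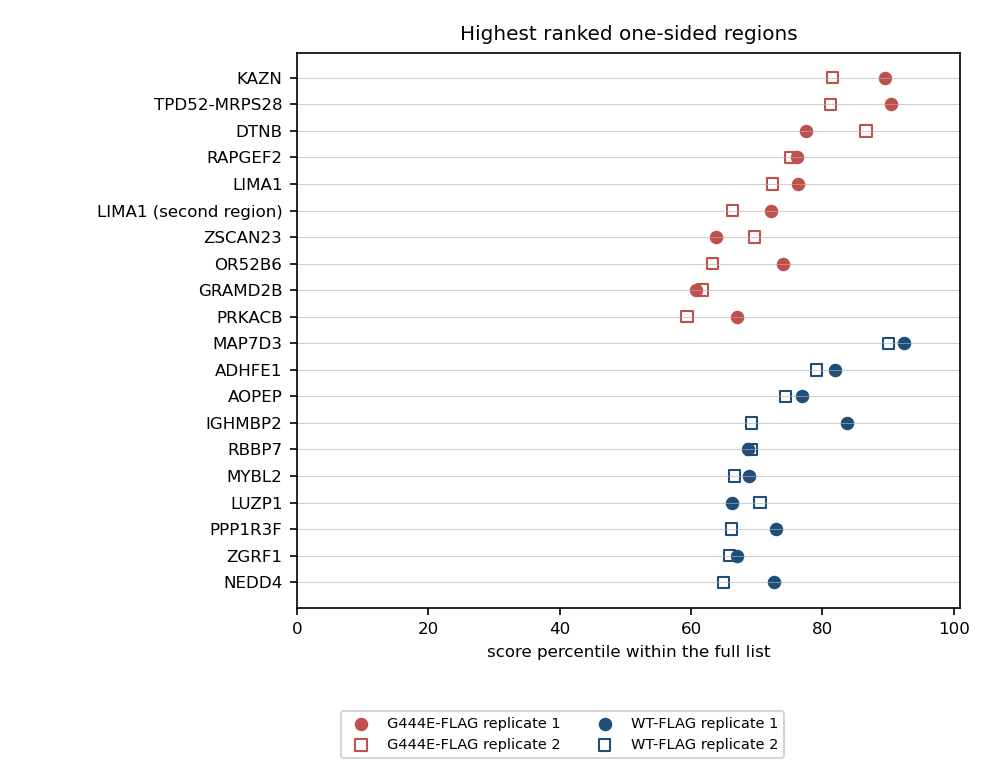
Score percentile (horizontal axis, 0 to 100, within each library's full list) of the 10 highest ranked G444E-FLAG-only regions (red, upper rows) and WT-FLAG-only regions (blue, lower rows), named by gene, with filled circles for replicate 1 and open squares for replicate 2. The absence of blue points above and of red points below is what chose the regions, and percentiles run from 59.4 to 92.5.

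Genes with several such regions were chosen after their values were seen. The 8 genes with 2 G444E-FLAG-only regions were LIMA1, DCAF5, EXT1, LYRM4, NRP1, ANKRD30B, SH3RF3 and ZNHIT6, and none had 3. EXT1 and ANKRD30B also had 2 WT-FLAG-only regions each. In WT-FLAG, 178 genes had at least 2 and 24 had at least 3. ABLIM1, an actin-binding LIM protein gene, had 5 WT-FLAG-only regions over 190742 bp, of which 3 kept the pattern at equal length. SRBD1 had 4, with 3 kept, and FERMT2, a kindlin that activates integrins, had 4, with 2 kept.

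A G444E-FLAG-only region lay within 50 kb of 589 of 20037 protein-coding genes, 2.94%, and a WT-FLAG-only region within 50 kb of 2220, 11.1%. Over the 10 gene lists, 5 of 174 genes had a G444E-FLAG-only region, a share near that of all genes, and none of these regions kept the pattern at equal list length. Among 24 luminal genes, 0 had a G444E-FLAG-only and 1 a WT-FLAG-only region, near KRT19, a simple-epithelium keratin. Among 16 basal genes the counts were 0 and 4, the WT-FLAG-only genes including SOX9, a progenitor transcription factor with percentiles of 40.5 and 40.3 in WT-FLAG, MYLK, myosin light chain kinase, and KRT14, which shares its region with KRT19. Among 18 mesenchymal genes the counts were 2 (11.1%) and 6 (33.3%). VIM, the intermediate filament vimentin, had a G444E-FLAG-only region 904 bp from its end (chr10:17237961-17239033) with percentiles of 11.6 and 10.4 in G444E-FLAG. A WT-FLAG-only region in the same window (chr10:17203462-17203739), nearest to TRDMT1, had 56.1 and 43.5 in WT-FLAG and kept the pattern at equal length. COL6A3, a collagen VI chain, had a G444E-FLAG-only region at percentiles of 3.36 and 1.69. TGFBI and SNAI2, a matrix protein and a repressor of E-cadherin, had WT-FLAG-only regions.

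Among 22 Hippo pathway targets, 2 (9.09%) had a G444E-FLAG-only region, within 50 kb of CCN1 but nearest to ZNHIT6, and in ASAP1, and 8 (36.4%) a WT-FLAG-only region, among them PTPN14, TEAD1 and CRIM1. TEAD1 encodes the DNA-binding partner of YAP, and its WT-FLAG-only region (chr11:12726406-12726764) had percentiles of 25.4 and 23.7 in WT-FLAG and a peak in no other library. Of 16 GATA family and cofactor genes, 0 had a G444E-FLAG-only region and 2 a WT-FLAG-only region, at ZFPM2, a FOG cofactor, and TRPS1, a GATA-type repressor. Among 18 genes known as GATA3 targets in T cells, 1 had a G444E-FLAG-only region, near IL4, and 2 a WT-FLAG-only region, near CCR8 and ZBTB7B. Of 16 TGF-beta pathway genes, 12 AP-1 genes, 20 protein turnover genes and 15 housekeeping genes, none had a G444E-FLAG-only region. WT-FLAG-only regions were near 2 of these TGF-beta genes (TGFBR1 and SMAD7), 2 AP-1 genes (FOSB and JUN), 1 turnover gene (FEM1C) and 3 housekeeping genes (PPIA, HPRT1 and ACTB). With full lists, the WT-FLAG-only shares of the Hippo, mesenchymal and basal (25%) lists were thus above the 11.1% of all genes. That of the luminal list (4.17%) was below it. These lists hold 16 to 24 genes each, no test was made of their shares, and a gene with a long span has more room for a region. At equal list length, the WT-FLAG-only regions named for PTPN14, TEAD1, CRIM1 and SNAI2 lost the pattern. Those named for SOX9, MYLK, KRT14, KRT19, VIM and TGFBI kept it. Among WT-FLAG-only genes named from the other lists, TGFBR1 and CCR8 kept it and the rest did not. Keeping or losing the pattern depended only on whether a region's own peaks scored above the cut.

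Around GATA3 itself (chr10:8045333-8075198) no region within 50 kb was G444E-FLAG-only or WT-FLAG-only. The region in the gene body (chr10:8070654-8072006) had percentiles of 46.9 and 25.4 in G444E-FLAG replicates 1 and 2, against 58.0 and 41.8 in WT-FLAG. Downstream, chr10:8084644-8085197 had 76.1 and 67.8 in G444E-FLAG, against 59.4 and 71.8 in WT-FLAG. The next, chr10:8100394-8100989, had 77.7 and 60.4 in G444E-FLAG, against 65.9 and 59.7 in WT-FLAG. The groups overlapped at all 3 in full lists. At equal list length they overlapped at the first, while the second had 67.8 and 67.8 in G444E-FLAG, against 41.6 and 65.3 in WT-FLAG. The last had 69.96 and 60.4 in G444E-FLAG, against 50.9 and 50.4 in WT-FLAG. G444E-FLAG was higher without overlap at these 2, by 14.4 and 14.6 points, and none of the 3 passed the limma test below, with or without the block. The other 4 regions near the gene were called in 1 or 2 libraries.

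Regions called in all 4 libraries were compared by score percentile after the lists were cut to 30026 peaks, which left 18179 regions. The highest scoring were the same in both groups. The region in TFEB, a transcription factor of lysosome genes (chr6:41730039-41731774), was first in every list, with scores of 1106 and 751 in G444E-FLAG replicates 1 and 2 and 1181 and 894 in WT-FLAG. BTBD9, MDGA1, ECI2, NR6A1 and SP6 followed, all at or above the 99.97th percentile in all 4 libraries. The median percentile difference over all regions was 0.06 points, and 5% of regions lay below −17.2 and 5% above 16.9 points.

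Score ranks, too, were closer within a replicate number than within a genotype. The median absolute difference between G444E-FLAG and WT-FLAG was 6.41 points in replicate 1 and 5.84 points in replicate 2, against 9.50 points between the G444E-FLAG replicates and 9.23 points between the WT-FLAG replicates. The genotype difference had the same sign in both numbers at 10226 regions, 56.3%. Across regions, which are not independent replicates, the differences of replicate 1 and replicate 2 had a Spearman rho of 0.14.

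**Figure D3:**
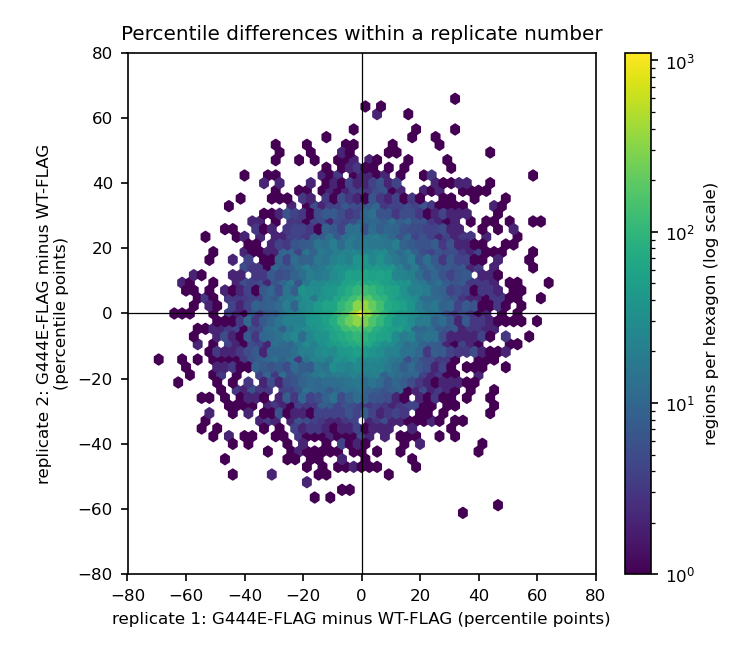
Percentile difference, G444E-FLAG minus WT-FLAG, in replicate 1 (horizontal axis) against replicate 2 (vertical axis) for the 18179 regions, with the colour giving the number of regions per hexagon on a log scale. Most regions lie around 0 in both, and the cloud is nearly round, with the same sign in both numbers at 56.3% of regions.

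No region passed limma's moderated test with Benjamini-Hochberg adjustment at 0.05, with 0 higher and 0 lower in G444E-FLAG (0% each), and 249 regions had an unadjusted p under 0.05. The groups did not overlap, with G444E-FLAG higher, at 2288 regions (12.6%) and, with G444E-FLAG lower, at 2320 regions (12.8%). Among those with G444E-FLAG higher, the region in HYDIN, a ciliary protein gene (chr16:70939849-70940769), had equal-length percentiles of 67.6 and 74.9 in G444E-FLAG, against 35.1 and 8.34 in WT-FLAG. MAP3K1, a kinase upstream of the JNK cascade (chr5:56838429-56839200), had 48.0 and 56.9 in G444E-FLAG, against 3.21 and 7.54 in WT-FLAG. Both G444E-FLAG libraries were above both WT-FLAG libraries at these loci by construction of the choice, and the mean differences were 49.5 and 47.1 points.

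The other largest differences with G444E-FLAG higher were near SMOX, spermine oxidase (43.3 points), near SNAPC1, a subunit of the complex that activates small nuclear RNA genes (43.2 points), and at a position on chromosome 17 (50.3 points) and a position on chromosome 7 (44.0 points) with no gene within 100 kb. On the lower side, PLEKHA5 (chr12:19139634-19140331) had 18.4 and 43.5 in G444E-FLAG, against 71.8 and 78.8 in WT-FLAG. MGAT5, which encodes an N-glycan branching enzyme (chr2:134300897-134301436), had 11.3 and 14.7 in G444E-FLAG, against 63.9 and 47.2 in WT-FLAG. PUM3 (−43.6 points), DPY19L4 (−42.3 points) and positions on chromosome 13 (−46.7 points) and chromosome 17 (−45.2 points) with no gene within 100 kb were the others. Every one of these 12 regions had a limma adjusted p of 1.

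With the replicate number as a block in limma, which leaves 1 residual degree of freedom, 14 regions (0.077%) were higher and 20 (0.11%) lower in G444E-FLAG at an adjusted p under 0.05. The labels do not state that the numbers pair samples, and these regions were named after their values were seen. All 14 higher regions were called in each of the 12 libraries analysed, and so were 12 of the 20 lower ones. Of the 21616 regions called in all 4 libraries with full lists, 10944 (50.6%) were called in the 8 others too. The regions were not matched for score. Among the higher regions, GNAI1, an inhibitory G protein subunit, had equal-length percentiles of 91.8 and 89.999 in G444E-FLAG, against 76.4 and 70.4 in WT-FLAG (adjusted p = 0.0379 from limma with the block). THRB, a thyroid hormone receptor, had 89.4 and 94.0 in G444E-FLAG, against 80.5 and 75.7 in WT-FLAG (limma adjusted p = 0.0449 with the block).

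Apart from HYDIN, at 49.5 points, the higher regions differed by 5.52 to 17.5 points. LAMC1, a laminin chain, differed by 7.61 points, CCR3, a chemokine receptor gene, by 8.48 points, and HPD, an enzyme of tyrosine breakdown, by 13.2 points. Others were at TNIP3, FAM171A1, TRAK1, TRPM8, SUCLG2, MAP3K3 and a position on chromosome 4 with no gene within 100 kb. At all 14 both G444E-FLAG libraries were above both WT-FLAG libraries.

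On the lower side, CHCHD3, a protein of mitochondrial crista junctions, had the largest difference. Its region had 51.9 and 42.7 in G444E-FLAG, against 83.2 and 91.6 in WT-FLAG, a difference of −40.0 ± 8.68 points (SE, limma adjusted p = 0.0342 with the block). ZNF385B, a zinc-finger gene, had 84.5 and 82.1 in G444E-FLAG, against 94.6 and 95.2 in WT-FLAG (limma adjusted p = 0.00766 with the block). ROR1, a Wnt5a receptor, had 77.9 and 87.8 in G444E-FLAG, against 93.7 and 94.3 in WT-FLAG (limma adjusted p = 0.0291 with the block). The groups did not overlap at 18 of the 20, the exceptions being CASP2 and ZNF451. The others were at CKAP4, SLC46A1, C1orf21, ANKH, ARHGEF3, MSTO1, PDE7B, LTBP1, PHOSPHO1, NAMPT, TTC23, MICAL2, P3H4, NEK1 and a position on chromosome 14 with no gene within 100 kb, with differences from −4.05 to −12.0 points.

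**Figure D4:**
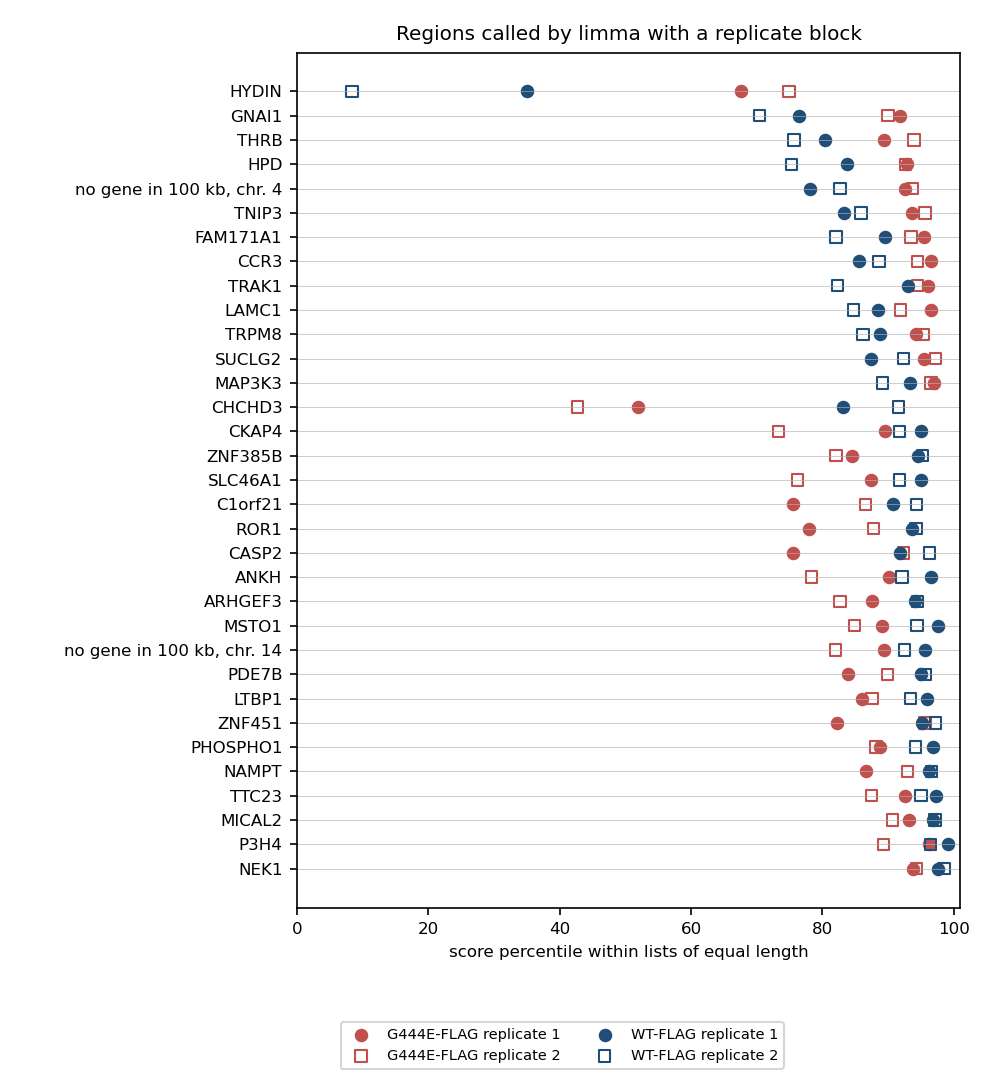
Equal-length score percentile (horizontal axis, 0 to 100) of 13 of the 14 regions higher (upper rows) and 20 regions lower (lower rows) in G444E-FLAG in limma with the replicate block, with G444E-FLAG in red, WT-FLAG in blue, filled circles for replicate 1 and open squares for replicate 2. All plotted regions but HYDIN and CHCHD3 lie above 70 in every library, and those 2 stand apart with 49.5 and −40.0 points.

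By gene list, the groups did not overlap, with G444E-FLAG higher, at 8 of 44 regions near luminal genes, and with G444E-FLAG lower, at 3. The counts were 6 and 10 of 59 near basal genes, 4 and 5 of 47 near mesenchymal genes, 18 and 19 of 132 near Hippo targets, and 13 and 4 of 66 near TGF-beta genes. They were 7 and 5 of 40 near GATA family and cofactor genes, 3 and 3 of 15 near AP-1 genes, 4 and 0 of 28 near turnover genes, 1 and 5 of 17 near T cell targets and 2 and 6 of 22 near housekeeping genes. The background was 12.6% higher and 12.8% lower. Median differences ran from −4.12 points near the T cell targets to 1.22 points near the luminal genes, beside the median of 0.06 over all regions.

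The 8 libraries outside the comparison showed how often the same positions were bound with other forms of GATA3. A442M-FLAG carries another point mutation with the same tag, and the A442M, G444E and WT groups carry no tag. The 369 G444E-FLAG-only regions were called in 47.7% ± 3.07 of cases in A442M-FLAG, 38.9% ± 0.958 in untagged A442M, 28.6% ± 0.575 in untagged G444E and 28.0% ± 0.192 in untagged WT (mean ± SD, n = 2 libraries each). The 1750 WT-FLAG-only regions were called in 70.3% ± 2.51, 38.4% ± 1.58, 21.0% ± 2.46 and 16.5% ± 1.66 of cases in the same groups. Over all 56096 regions the means were 67.3%, 57.1%, 49.0% and 39.2%. G444E-FLAG-only regions were thus called less often than regions in general in each group, and WT-FLAG-only regions were near the general share in A442M-FLAG and below it in the others. Regions in general include the higher scoring regions called in all 4 libraries, and the sets were not matched for score.

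Both A442M-FLAG libraries called 116 G444E-FLAG-only regions (31.4%) and 1020 WT-FLAG-only regions (58.3%), against 55.7% of all regions. In no library outside the comparison were 38 G444E-FLAG-only regions (10.3%) and 105 WT-FLAG-only regions (6%) called. The untagged pair shares no library with the tagged pair. Of the 369 G444E-FLAG-only regions, 14 were called in both untagged G444E and neither untagged WT library, and 15 the other way. Of the 1750 WT-FLAG-only regions, 65 were called in both untagged G444E and neither untagged WT library, and 60 the other way. Among all 56096 regions, 4009 (7.15%) were called in both untagged G444E and neither untagged WT library, and 1177 (2.098%) the other way. By count, the genotype pattern of the tagged libraries was about as often reversed as repeated without the tag in each set. Beside all regions, G444E-FLAG-only regions repeated the pattern less often (3.79% against 7.15%) and reversed it more often (4.07% against 2.098%). WT-FLAG-only regions repeated it more often (3.43% against 2.098%) and reversed it less often (3.71% against 7.15%). These shares were not tested.

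**Figure D5:**
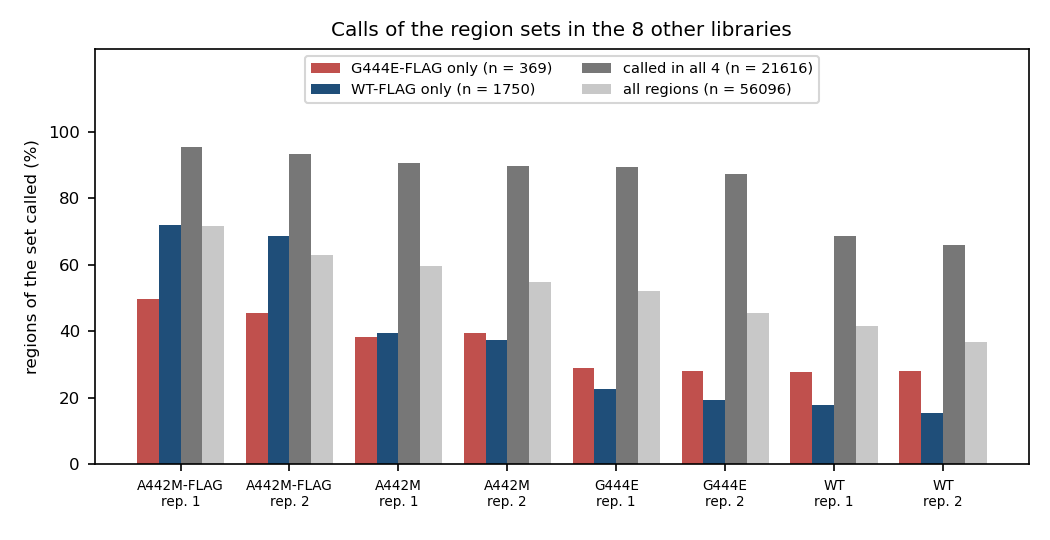
Percent of regions called (vertical axis) in each of the 8 libraries outside the comparison, for the 369 G444E-FLAG-only regions (red), the 1750 WT-FLAG-only regions (blue), the 21616 regions called in all 4 libraries (dark grey) and all 56096 regions (light grey). WT-FLAG-only regions reach 70.3% on average in A442M-FLAG, where G444E-FLAG-only regions reach 47.7%, and both lie below all regions in the untagged libraries.

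Of the 14 regions higher in G444E-FLAG with the block, all had a percentile in the untagged lists and 6 were higher in untagged G444E than in untagged WT. Of the 20 lower ones, 12 had a value in all untagged lists and 1 was also lower in untagged G444E, while the median untagged difference of the 12 was 26.2 points. Over all 10729 regions measured in both tag states, 45.0% had the same direction with and without the tag. Untagged G444E was higher than untagged WT at 54.3% of them, with a median difference of 1.18 points. Where the tagged groups did not overlap, 44.9% of regions higher in G444E-FLAG and 33.3% of those lower kept their direction. Their median untagged differences were −1.07 and 6.20 points. The untagged WT libraries had 120 and 91 peaks outside chromosomes 1 to 22 and X, against 16 to 25 in the other 6 libraries of these 4 groups, and whether this bears on the untagged difference was not tested.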

How the data were processed

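Peak lists of 12 libraries, 4 of them compared here, give position, name and a score. Peaks came from MACS2 2.1.4 on hg38, per the submitters' processing notes. The sources used here do not give the aligner, control, filters or depth. What the deposited score measures is not stated, and it starts at about 5 in each list, so it was used only within a list. The 2 empty-vector samples are not analysed here, and 1 of the regions called with the block is not reported here.

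Peaks were merged at 1 bp overlap, and scores turned into percentiles within each list, full or cut to 30026 peaks (scipy 1.17.1). Percentiles were tested with limma 3.58.1 (R 4.3.3, trend, Benjamini-Hochberg at 0.05), peak numbers with exact permutation tests. Merging, region calls and the limma fits without the block were tested on simulated data. The simulated noise was smaller than the spread between these replicates, so it does not show what size of shift could be detected here. The fits with the block were not assessed by simulation. Same-numbered libraries deviated together (correlations of 0.11 to 0.29 over 15 pairs of groups), which pairs them from the data and not the labels. Gene positions and promoter windows came from RefSeq, GRCh38.p14, and all 174 list genes matched. Start sites were taken from the promoter windows, which held none for protein-coding genes on chromosome 8. Named were the 10 regions a side with the highest lower percentile, the 6 largest non-overlapping shifts a direction, the regions near GATA3, up to 3 members a list, 4 promoters a side and the 6 strongest regions. These rules, members and lists were chosen with earlier results of these data known.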

Additional observations from a re-analysis of the deposited data

Results flagged for a closer look

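The genotype difference in score percentile was tested for a difference between tag states after the values were seen, with a limma interaction over the 8 libraries of G444E-FLAG, WT-FLAG, untagged G444E and untagged WT, cut to 25248 peaks each. Of 10106 regions called in all 8, 323 (3.20%) had an adjusted p under 0.05. The difference between G444E and WT was more positive with the tag at 14 of them and more negative with the tag at 309. With the replicate block the counts were 309 and 1129.

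Of the 34 regions that limma with the block had called in the tagged pair, 25 could be tested and 6 passed without the block (1 of the higher and 5 of the lower regions), against 8 of the higher and 11 of the lower regions with it. They were chosen for their tagged difference, which is part of the value tested. ARHGEF3 had percentiles of 85.2 and 79.4 in G444E-FLAG and 93.0 and 93.4 in WT-FLAG, and of 80.2 and 81.0 in untagged G444E and 16.8 and 26.2 in untagged WT. The tagged difference minus the untagged one was −70.0 points at ARHGEF3 (limma adjusted p = 0.0195). CHCHD3 had 42.8 and 31.9 in G444E-FLAG and 79.996 and 89.95 in WT-FLAG, and 84.8 and 94.0 in untagged G444E and 68.0 and 69.4 in untagged WT, a change of −68.3 points (limma adjusted p = 0.0252). The change was −71.8 points at a position on chromosome 14 with no gene within 100 kb, −56.5 points at C1orf21, −22.6 points at NEK1 and 13.2 points at CCR3 (limma adjusted p = 0.0248, 0.0402, 0.0378 and 0.0426 in that order). The untagged WT libraries, which also stand apart in peaks on other contigs, had the lowest percentiles of the 4 groups at ARHGEF3, C1orf21, NEK1 and the chromosome 14 position. A batch of untagged WT cannot be told apart from its genotype and tag state.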

How the results depend on the processing

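The replicate number was used as a block after same-numbered libraries were found to deviate together. Limma on percentiles called 0 regions higher and 0 lower without the block, 14 and 20 with it, and 57 and 103 with the block on the logit scale, an alternative chosen after seeing the data, under which all 34 remained. The region count for the tag-state difference was 1438 with the replicate block, against 323 without. G444E-FLAG-only regions numbered 565 at equal length, 244 with a score of at least 10, and 1389 to 4636 with a library left out. WT-FLAG-only regions numbered 841 at equal length and 3486 to 7435 with a library left out. Leaving out a library removes a condition of the pattern, so these counts grow by construction. The log2 peak number ran from −0.41 to 0.0154 with a library left out, reversed without G444E-FLAG replicate 2 (0.0154). The share of peaks near a start reversed at equal length (0.34 percentage points) and ran from −1.10 to 0.61 with a library left out, reversed without G444E-FLAG replicate 2 (0.61) or WT-FLAG replicate 1 (0.58); the causes were not tested. Without the block, limma called 0 regions under each other alternative. Of the single regions named, DTNB lost a call when a peak had to cover 50% of a region, and the differences at MAP3K1, SMOX, SNAPC1 and the chromosome 17 position moved with full lists, keeping their sign. Depth is unknown and may set which weak regions are called.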
